A study of Mus musculus with 6 samples.

Results

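The 41 genes described here encode integrins and the proteins that couple them to actin at focal adhesions. They comprise 17 integrin alpha chains, 8 beta chains, 5 talins and kindlins that activate integrins, 6 proteins of the ILK, PINCH and parvin complex, and 5 signalling or adaptor proteins. Members were taken by exact gene symbol from the platform annotation of the array. Probe sets were found for 38 of the 41 genes, out of 18194 genes named on the array, and Fermt1, Itga11 and Ptk2 were not analysed here. The 38 genes had 90 probe sets, of which 56, covering 27 genes, were bright enough to be tested.

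An integrin is a dimer of an alpha and a beta chain that spans the cell membrane, binds matrix proteins such as fibronectin, laminin or nephronectin outside the cell, and is linked through talin to the actin cytoskeleton inside. Talins and kindlins bind the tail of the beta chain and switch the dimer to its binding state. The ILK complex, paxillin, zyxin and tensin then build the adhesion plaque. In epithelia, integrins hold cells to the basement membrane, and in the developing urogenital tract the Itga8 chain is known for its part in kidney formation.

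The tissue was the gonadal primordium's epithelium, taken from mouse fetuses at E10.5. One group was wild-type (+/+) and the other lacked Emx2 (-/-, KO), a homeobox gene required for urogenital development; the sources used here name neither the mutant allele nor the strain. The epithelium was cut by laser microdissection from frozen, hematoxylin-stained sections, with GATA4 staining on some sections to find the primordium. There were 3 pools in each group, each of material from 3 fetuses and each hybridised to 1 array. Values are intensities after each array was brought to a common level, written as scaled intensities, and a log2 fold change is KO minus wild-type. A gene is said to have risen or fallen where limma's test gave an adjusted p under 0.05. Whether litters were shared between pools is not stated, so p-values measure the spread between these pools.

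Over the whole array, 1264 of 27022 tested probe sets passed, 742 higher and 522 lower in KO; in fits without 1 pool the total ran from 721 (without wild-type replicate 1) to 1682 (without wild-type replicate 3). The deposited medians ran from 40.6 to 63.6 over the 6 arrays, and their number limits the precision. Markers of the gonadal primordium were present: of 17 measured coelomic and gonadal genes, Msln alone was under the dim limit of 26.4 in both groups. They also differed between the groups: of 16 tested, 5 rose and 3 fell. Nr5a1, a gonadal transcription factor, fell from 1419, 2060 and 1517 to 802, 727 and 601 (−1.22, SE 0.15, adjusted p = 0.000492), Aldh1a1 and Krt8 were the others lower, and Tbx18 rose 9.77-fold. Lhx9 and Wt1 did not pass, at 0.02 and −0.40. The Emx2 probe set read 1302, 2120 and 1727 in wild-type pools 1 to 3 and 1678, 1480 and 1746 in KO pools 1 to 3. It did not pass (adjusted p = 0.916), and where it lies relative to the deleted part is not stated, so it checks no label. Emx2os, the antisense transcript at the Emx2 locus, fell (−2.30, SE 0.24, adjusted p = 0.00015). Xist, the RNA of the inactive X chromosome in female cells, read between 0.762 and 69.9 over its 3 probe sets in wild-type and between 1198 and 9888 in KO. Genotype and the sex of the pools therefore cannot be told apart in any comparison below.

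Among the 56 tested probe sets of integrins and adhesion adaptors, Itga4 and Itga5 rose and Itga8 and Tln2 fell, each through 1 probe set. The remaining 52 probe sets did not pass. The share that passed was 7.14%, against 4.68% of all tested probe sets. By direction, 2 of 56 rose, against 2.75% of all, and 2 fell, against 1.93%. The median log2 fold change of the 56 was −0.01, with 28 positive and 28 negative, and that of all tested probe sets was 0.01. The members as a group were thus near the array's background in the share that passed and in their centre. Values of the wild-type and KO pools did not overlap in 19 of the 56 (33.9%), 11 higher and 8 lower in KO, against 22.0% of all tested probe sets. An unadjusted p under 0.05 (limma) was found for 19 of the 56 (33.9%), several of them of Itgb5, against 17.3% of all tested probe sets. None of the 90 member probe sets passed in limma's fit with dim probe sets left in, where the whole array had 151 calls. In that fit the adjusted p was 0.0552 for Itga8, 0.0542 for Tln2, 0.0995 for Itga4 and 0.229 for Itga5.

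**Figure D1:**
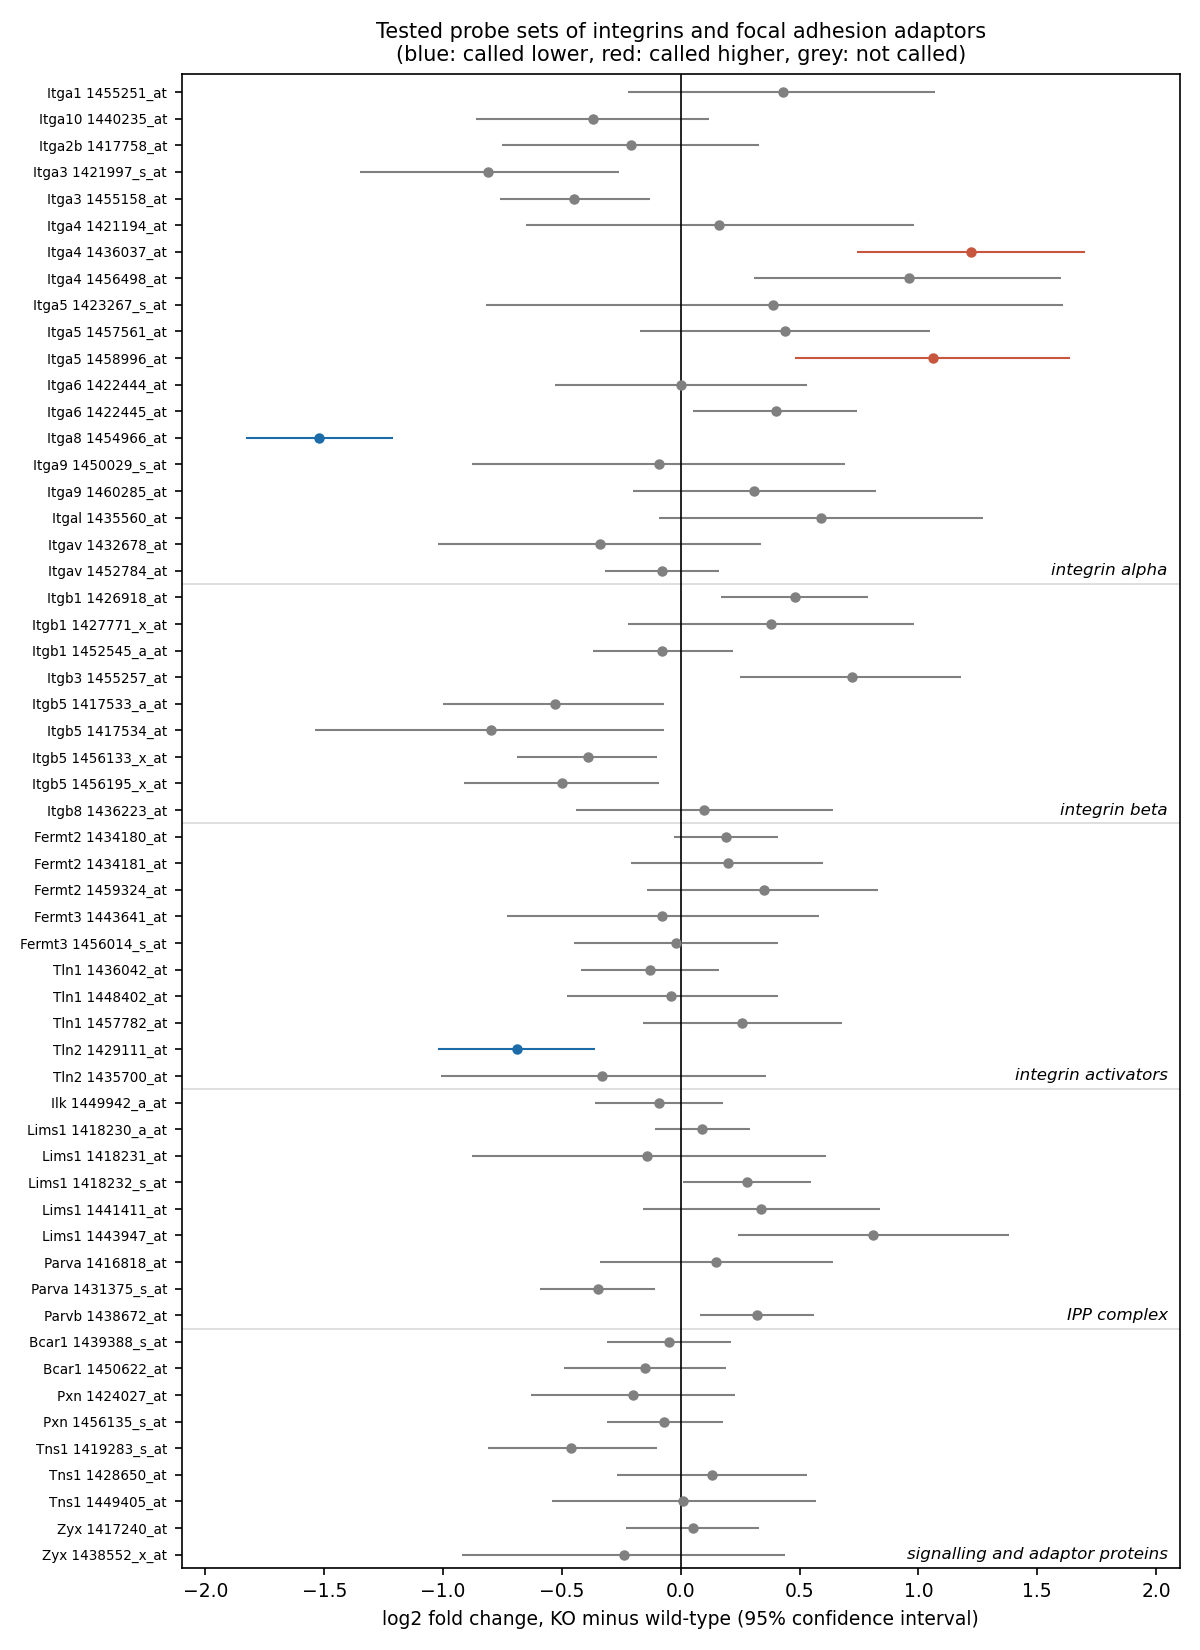
Log2 fold change (KO minus wild-type, x axis) of the 56 tested probe sets, 1 row each, grouped by role, with bars for the 95% confidence interval. Itga8 (−1.52) and Tln2 (−0.69) are coloured as lower, Itga4 (1.22) and Itga5 (1.06) as higher, and the grey points did not pass.

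Itga8, the chain that pairs with Itgb1 to bind nephronectin and fibronectin, showed the greatest change of the tested members. Its brighter probe set (1454966_at) read 1388, 1487 and 1117 in wild-type pools 1 to 3, and 390, 496 and 500 in KO pools 1 to 3; values below keep this order. Every KO pool lay below every wild-type pool. The wild-type mean of 1331 ± 192 compared with 462 ± 62.1 in KO (SD, n = 3 pools in each group). That is a log2 fold change of −1.52 (SE 0.14, limma adjusted p = 6.95e-05), or 2.88-fold lower in KO. The 95% confidence interval of the KO to wild-type ratio was 0.28 to 0.431. The call held in all 6 fits that left out 1 pool.

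A second Itga8 probe set (1427489_at) read 32.8, 41.4 and 74.7 (wild-type) and 7.99, 11.7 and 3.75 (KO). Its groups did not overlap either, but its mean over all pools was too dim for the test, and 2 KO pools lay at the floor of 7.99. In the fit with dim probe sets left in it gave −2.36 (SE 0.37, adjusted p = 0.112). In this bulk tissue, fewer cells that express a gene and less RNA of it per cell cannot be told apart.

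Tln2, the second talin, which like Tln1 links the beta chain to actin, read 243, 284 and 269 (wild-type) and 161, 167 and 164 (KO) (1429111_at). The KO pools lay close together and below all wild-type pools. The log2 fold change was −0.69 (SE 0.15, adjusted p = 0.021), with a confidence interval from −1.02 to −0.36. The call depended on which pools were used: it was lost without wild-type replicate 2 (adjusted p = 0.0725) and without KO replicates 1, 2 and 3 in turn (0.0716, 0.063 and 0.0733). With the deposited values left unscaled it did not pass either (−0.60, adjusted p = 0.373). A dimmer Tln2 probe set (1435700_at) read 27.8, 35.1 and 34.2 (wild-type) and 20.7, 27.5 and 29.6 (KO), with overlapping groups (−0.33, SE 0.32, adjusted p = 0.67). The remaining Tln2 probe set (1429112_at) lay at 3.59 or below in all pools.

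Itga4, the chain that binds fibronectin and Vcam1 and is known from blood, neural crest and mesenchymal cells, went the other way. Its probe set 1436037_at read 55.7, 47.6 and 70.0 (wild-type) and 146, 123 and 132 (KO). All KO pools stood above all wild-type pools. The wild-type mean was 57.8 ± 11.3 and that of KO 133 ± 11.7 (SD, n = 3). This 2.33-fold rise, 1.22 on the log2 scale (SE 0.22), had an adjusted p = 0.00594, and the call held in all 6 fits that left out 1 pool. With the lowest 60% of probe sets left out it was not tested.

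Itga4 had 4 further probe sets. One (1456498_at) read 24.6, 31.0 and 35.1 (wild-type) and 75.0, 43.6 and 59.8 (KO), again without overlap, but did not pass (0.96, SE 0.30, adjusted p = 0.101). Another (1421194_at) overlapped, at 39.3, 25.4 and 30.7 against 47.4, 19.9 and 45.5 (0.16, SE 0.38, adjusted p = 0.879). The other two lay at 11.6 or below in every pool and were not tested.

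Itga5, the alpha chain of the classical fibronectin receptor, rose at 1 of its 4 probe sets. That one (1458996_at) read 57.2, 30.9 and 47.0 (wild-type) and 83.1, 99.0 and 91.5 (KO). The groups did not overlap, with a mean of 45.0 ± 13.2 in wild-type and 91.2 ± 7.92 in KO (SD, n = 3). On the log2 scale the rise was 1.06 (SE 0.27, adjusted p = 0.0406). The call was lost without wild-type replicate 2 (adjusted p = 0.111) and without KO replicates 1, 2 and 3 in turn (0.0909, 0.144 and 0.13). It was also lost without an intensity trend (0.0785) and where the lowest 60% of probe sets were left out, since it was then not tested.

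The other Itga5 probe sets gave no call. 1457561_at read 34.8, 30.9 and 29.4 (wild-type) and 36.3, 45.6 and 47.3 (KO) (0.44, SE 0.28, adjusted p = 0.478), just without overlap. 1423267_s_at read 39.4, 47.2 and 5.56 (wild-type) and 24.0, 41.4 and 33.8 (KO), so that wild-type pool 3 stood apart and the groups overlapped. The fourth (1423268_at) lay at 10.6 or below throughout. Which parts of the transcript these probe sets read was not examined.

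**Figure D2:**
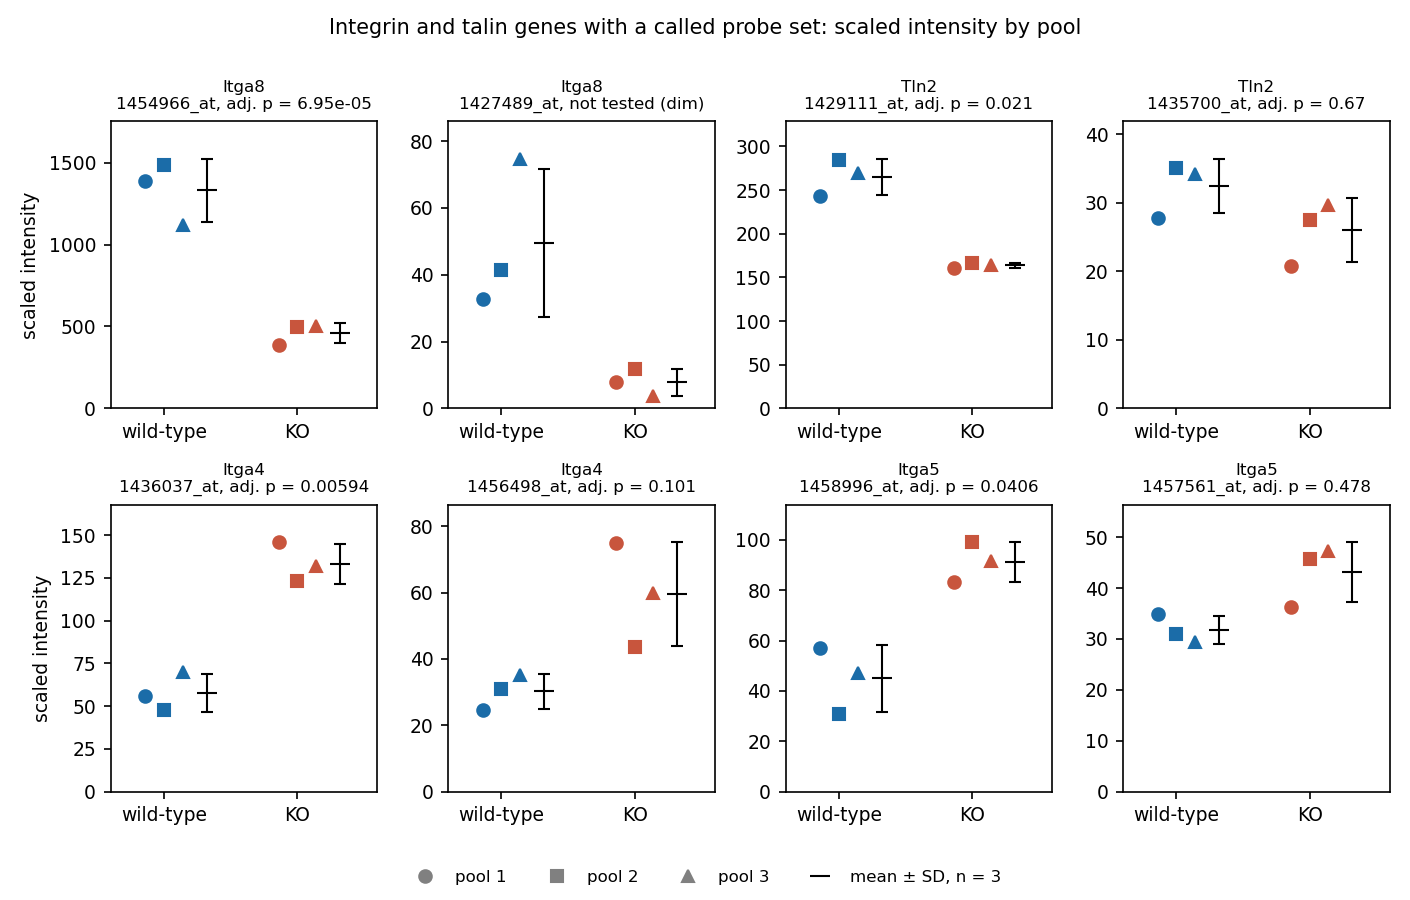
Scaled intensity (y axis, linear, from 0) in each wild-type (blue) and KO (red) pool for 8 probe sets of Itga8, Tln2, Itga4 and Itga5, with the mean and SD of 3 pools in black. Itga8 falls from 1331 to 462 and Tln2 1429111_at stays between 161 and 167 in KO, while Itga4 1436037_at and Itga5 1458996_at are higher in all 3 KO pools.

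The bases before the start of 3 of these 4 genes, taken from RefSeq promoters of build GRCm38.p6, are shown because these genes passed the test; Tln2 is not in that table. The windows are chr2:12301986-12302194 on the minus strand for Itga8, chr2:79255176-79255425 on the plus strand for Itga4 and chr15:103366792-103367041 on the minus strand for Itga5, all upstream of the annotated gene. Each is written 5′ to 3′ along its gene. Capitals mark TAAT, the core that homeodomain proteins such as Emx2 bind, and GGGCGG, the GC box of Sp and Klf factors, each on either strand.
Itga8: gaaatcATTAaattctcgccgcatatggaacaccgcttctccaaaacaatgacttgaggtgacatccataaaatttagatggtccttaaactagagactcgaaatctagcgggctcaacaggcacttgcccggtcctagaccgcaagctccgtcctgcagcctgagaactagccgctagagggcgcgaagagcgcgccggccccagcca
Itga4: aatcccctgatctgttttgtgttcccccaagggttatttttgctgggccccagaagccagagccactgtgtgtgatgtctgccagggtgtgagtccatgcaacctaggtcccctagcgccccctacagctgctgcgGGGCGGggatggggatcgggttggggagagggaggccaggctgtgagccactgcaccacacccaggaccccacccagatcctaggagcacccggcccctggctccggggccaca
Itga5: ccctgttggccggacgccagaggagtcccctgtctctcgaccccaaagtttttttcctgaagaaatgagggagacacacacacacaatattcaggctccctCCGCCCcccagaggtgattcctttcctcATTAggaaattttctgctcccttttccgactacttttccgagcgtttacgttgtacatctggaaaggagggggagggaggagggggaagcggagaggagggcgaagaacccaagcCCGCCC
The motifs were counted in the 250 bases before the start; for Itga8 only 209 of these are printed, those outside the annotated gene. TAAT occurred 1 time in Itga8, 1 time in Itga5 and 0 times in Itga4. GGGCGG occurred 1 time in Itga4, 2 times in Itga5 and 0 times in Itga8. Such short motifs are common: 54.9% of 32851 promoters of that length hold TAAT and 32.7% hold GGGCGG. Among the 36 promoters listed for 29 of the members, 14 held TAAT and 17 held GGGCGG. A match describes letters only, and no binding was measured.

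Markers of other cell types also differed between the same pools. Of 17 tested markers of the mesenchyme under the epithelium, 9 rose and 2 fell, and their summed scaled intensity ran from 13330 to 14661 in wild-type and from 19444 to 20446 in KO. Of 13 tested endothelial markers, 4 rose and 0 fell, where 9 were higher and 0 lower at an unadjusted p under 0.05 (limma), and the sums ran from 1232 to 1698 and from 2068 to 2491. Of 12 tested blood and myeloid markers 1 rose, Csf1r, with sums of 638 to 1000 and 1073 to 1378. At an unadjusted p under 0.05 (limma) 2 of them were higher and 0 lower, and their median log2 fold change was 0.33. Of 6 tested neural crest markers 1 rose, Ednrb (2.88-fold), and 1 fell, Dct (13.6-fold). Their sums were 605 to 766 in wild-type and 458 to 473 in KO. Dct alone had a mean of 266 in wild-type and 23.8 in KO. Ptprc, the pan-leukocyte marker, read between 14.6 and 44.3 over all pools and Aif1 lay at the floor in all of them. Of 5 tested nephric duct markers 2 fell: Lhx1 2.84-fold (−1.51, SE 0.30, adjusted p = 0.0116) and Pax8 2.56-fold (−1.36, SE 0.29, adjusted p = 0.0166). Cdh16, too dim to be tested, read 56.3, 43.2 and 52.6 against 5.04, 18.0 and 7.17. The summed duct levels overlapped, at 2043 to 2766 in wild-type and 1765 to 2191 in KO, with Krt18, also a coelomic marker, and Calb1 as their brightest genes and neither called. Of 8 tested striated muscle markers 3 fell, Mybpc1 (10.3-fold), Myh6 (5.56-fold) and Myh7 (2.76-fold), and Tnnt2 rose, with sums of 1310 to 1517 and 1028 to 1205; Myog, Myod1, Myf5 and Myh3 were under the dim limit in both groups. Of 9 tested germ cell markers 2 fell, Dppa3 (1.67-fold) and Dnd1 (1.89-fold), with sums of 1704 to 1791 and 1327 to 1821. Of 8 tested erythroid markers 0 passed and 1 was higher at an unadjusted p under 0.05 (limma). Their sums were the largest of the marker lists, at 36128 to 38085 in wild-type and 36949 to 38406 in KO. The part of these cell types in the integrin results was not tested.

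Of the laminin and collagen receptors among the alpha chains, none passed. Itga3, a laminin receptor of epithelia, was lower in every KO pool at both tested probe sets. The brighter (1455158_at) read 545, 404 and 509 (wild-type) and 345, 344 and 373 (KO) (log2 fold change −0.45, SE 0.15, adjusted p = 0.117), and the dimmer (1421997_s_at) 98.3, 72.1 and 63.4 against 43.8, 44.0 and 43.7 (−0.81, SE 0.25, adjusted p = 0.0977). Neither passed, though without wild-type replicate 2 the brighter did (−0.57, adjusted p = 0.0491). Itga6, also a laminin receptor, read 222, 259 and 193 (wild-type) and 273, 312 and 297 (KO) at its brighter probe set (0.40, SE 0.16, adjusted p = 0.216). Its dimmer probe set overlapped fully (0.00, SE 0.24). The collagen-binding chains Itga1 and Itga10 gave 0.43 (SE 0.30) and −0.37 (SE 0.23), with Itga10 between 65.7 and 80.0 in wild-type and between 53.1 and 60.4 in KO. Itga9, a tenascin receptor, gave 0.31 (SE 0.24) and −0.09 (SE 0.36) at its tested probe sets.

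Itgav, the alpha chain shared by the vitronectin receptors, was bright and close in both groups. Its main probe set (1452784_at) read 3453, 2849 and 3258 (wild-type) and 2836, 2728 and 3490 (KO). The groups overlapped, and the log2 fold change was −0.08 (SE 0.11, adjusted p = 0.772), with a 95% confidence interval from −0.32 to 0.16. A dim Itgav probe set gave −0.34 (SE 0.31, adjusted p = 0.652), and its other 3 lay at 31.7 or below in every pool.

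Itgb5, the beta chain that joins Itgav to bind vitronectin, turned on 1 pool. Probe set 1417533_a_at read 1063, 1104 and 558 (wild-type) and 544, 598 and 667 (KO). Wild-type pool 3 thus lay among the KO pools and the other two wild-type pools far above them. The same held at 1417534_at, with 411, 532 and 199 against 128, 217 and 293, and at 1456195_x_at, with 857, 907 and 507 against 493, 560 and 503. At 1456133_x_at the groups just did not overlap, at 890, 1008 and 733 against 653, 618 and 718.

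Over all pools the 4 Itgb5 probe sets gave log2 fold changes of −0.53, −0.80, −0.50 and −0.39 in the order above, with adjusted p-values of 0.216, 0.236, 0.182 and 0.137, and none passed. Without wild-type replicate 3 all 4 passed, at −0.85, −1.22, −0.77 and −0.52 (adjusted p = 0.00241, 0.0247, 0.00469 and 0.038). That fit also gave the most calls over the whole array among the fits that left out a pool. The 4 probe sets share the same 6 RNA pools, so they are not independent evidence on the groups.

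Itgb1, the beta chain shared by most matrix-binding alpha chains, Itga8, Itga4 and Itga5 included, gave different readings at its brighter probe sets. 1426918_at read 320, 343 and 369 (wild-type) and 429, 466 and 552 (KO), without overlap (0.48, SE 0.14, adjusted p = 0.08). 1452545_a_at read 388, 356 and 371 against 375, 319 and 365, with overlap (−0.08, SE 0.14, adjusted p = 0.832). A dim one (1427771_x_at) read 29.0, 41.6 and 39.1 against 48.6, 43.5 and 49.1 (0.38, SE 0.28). The first interval, 0.17 to 0.79, and the second, −0.37 to 0.22, overlap only at their ends, and the difference between the probe sets was not tested. The remaining 3 Itgb1 probe sets lay at 17.1 or below.

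Itgb3, the beta chain of the platelet fibrinogen receptor and a partner of Itgav, read 115, 150 and 120 (wild-type) and 157, 269 and 218 (KO) (0.72, SE 0.21, adjusted p = 0.0839). The groups did not overlap, and without KO replicate 1 it passed (0.93, adjusted p = 0.0358). Its platelet partner Itga2b did not follow, at 78.2, 75.3 and 93.0 against 51.7, 87.7 and 78.0 (−0.21, SE 0.25, adjusted p = 0.74). Of 7 tested markers of megakaryocytes and platelets 0 passed and 2 had an unadjusted p under 0.05, both higher, with summed levels of 521 to 841 in wild-type and 778 to 1061 in KO. Their part in the Itgb3 values was not tested. Itgb8, which activates latent TGF beta with Itgav, gave 0.10 (SE 0.25). Among the 9 tested beta chain probe sets 0 passed, while 6 had an unadjusted p under 0.05 (limma), against 17.3% of all tested probe sets; these 6 are of 3 genes, 4 of them Itgb5 read on the same pools.

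**Figure D3:**
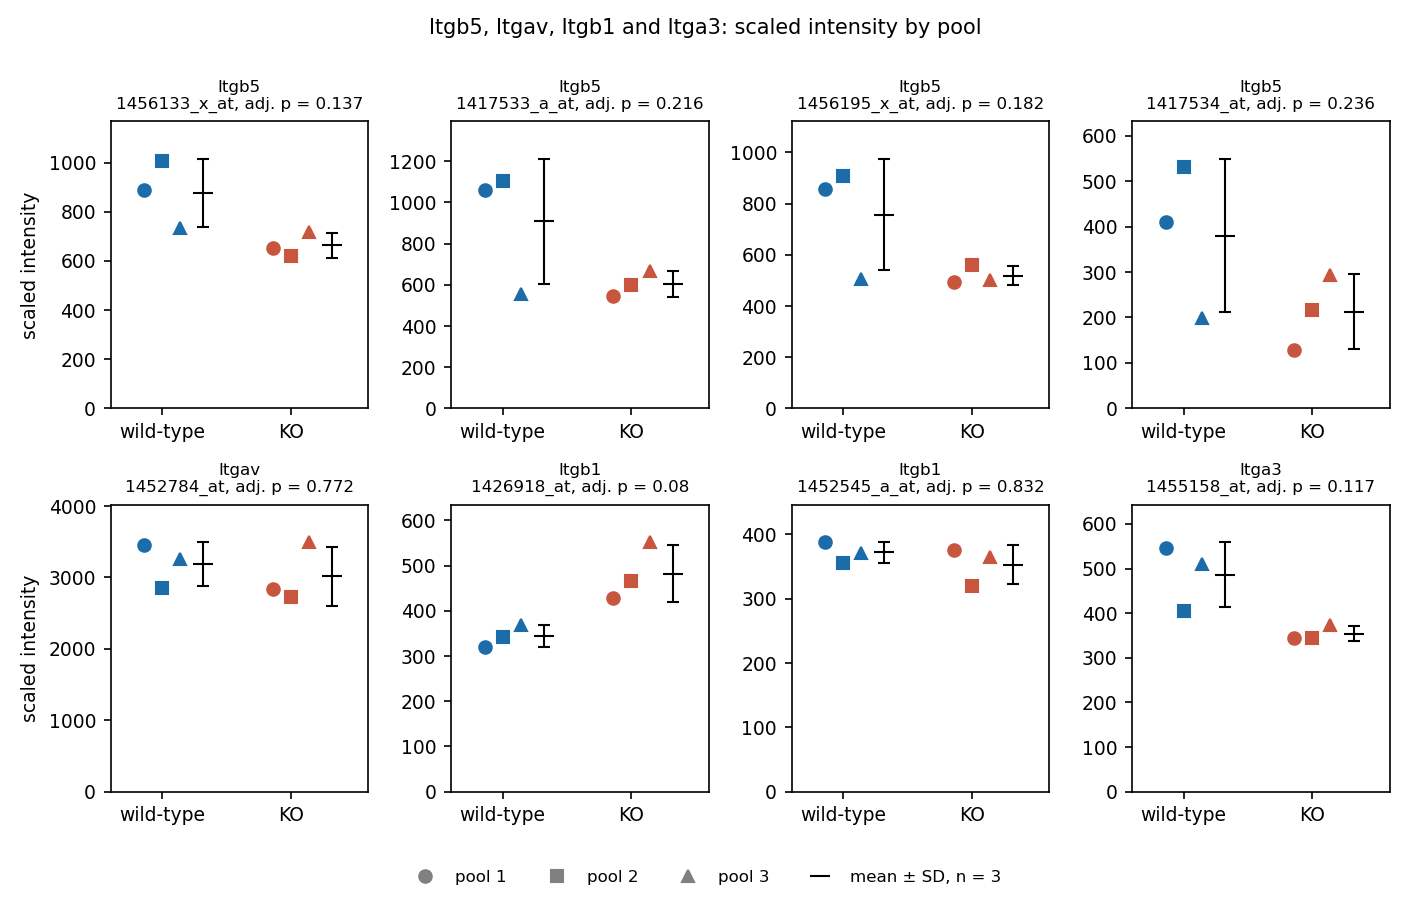
Scaled intensity (y axis, linear, from 0) in each wild-type (blue) and KO (red) pool for 4 Itgb5 probe sets, Itgav, 2 Itgb1 probe sets and Itga3, with the mean and SD of 3 pools in black. Wild-type pool 3 (triangle) reads 558 at Itgb5 1417533_a_at, among the KO pools at 544 to 667, and the Itgb1 probe sets differ in whether the groups separate.

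Most chains known from specialised cells lay at the dim end of the array. Itgal, the alpha chain of the leukocyte receptor LFA-1, was tested at 1 probe set, reading 24.0, 36.3 and 29.5 (wild-type) and 41.8, 59.0 and 35.3 (KO) (0.59, SE 0.31, adjusted p = 0.373). The leukocyte chains Itgam, Itgax and Itgb2 were not tested, none of their pools reading above 19.8. Itgb4, the hemidesmosome chain, reached 18.2, and Itgb6, an epithelial partner of Itgav, 11.9. The collagen receptor chain Itga2 reached 27.2, and Itga7, the laminin receptor of muscle, 27.6 in 1 KO pool with all other pools at 7.84 or below. Itgae and Itgb7, which together bind E-cadherin, reached 41.2 and 38.9 in single pools and had means too low to be tested. No detection calls were used, so these readings do not show whether the genes were expressed.

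Among the activators, Tln1 and the kindlin Fermt2 did not pass. Tln1 gave −0.13, −0.04 and 0.26 (SE 0.13, 0.21 and 0.19) at its 3 probe sets. The first (1436042_at) read 528, 512 and 468 (wild-type) and 414, 510 and 458 (KO), and the second (1448402_at) 582, 675 and 399 against 397, 606 and 605. The dimmest (1457782_at) ran from 90.9 to 113 in wild-type and from 110 to 133 in KO. All these groups overlapped. Fermt2, the kindlin of most tissues, read 1971, 1879 and 2369 against 2400, 2281 and 2367 at its brightest probe set (0.19, SE 0.10, adjusted p = 0.386), with an interval of −0.03 to 0.41. Fermt3, the kindlin of blood cells, gave −0.02 (SE 0.20) and −0.08 (SE 0.30). The other two Fermt2 probe sets gave 0.20 (SE 0.19) and 0.35 (SE 0.22), uncalled.

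The ILK complex showed differences in both directions, with log2 fold changes from −0.35 to 0.81, and none passed. Of its 9 tested probe sets 4 had an unadjusted p under 0.05 (limma), against 17.3% of all tested. These 4 are of Parva, Parvb and Lims1, and the Lims1 ones read the same gene on the same pools. Ilk, the pseudokinase at its centre, read 1553, 1906 and 1335 (wild-type) and 1517, 1502 and 1439 (KO) (−0.09, SE 0.12, adjusted p = 0.782; interval −0.36 to 0.18). The parvins, which bind Ilk and actin, parted. Parva read 895, 840 and 876 (wild-type) and 726, 681 and 643 (KO) at its brighter probe set (−0.35, SE 0.11, adjusted p = 0.107), and Parvb 716, 751 and 690 against 924, 926 and 841 (0.32, SE 0.11, adjusted p = 0.141). Neither pair of groups overlapped, and neither gene passed. A dimmer Parva probe set gave 0.15 (SE 0.23), opposite in sign.

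Lims1, which encodes the LIM protein PINCH1, read 2339, 2247 and 2359 (wild-type) and 2508, 2672 and 2243 (KO) at its brightest probe set (0.09, SE 0.09, adjusted p = 0.686). Its other 4 probe sets ranged from −0.14 to 0.81, the last being a dim one (1443947_at) from 29.8 to 38.8 in wild-type and from 52.9 to 67.1 in KO, without overlap (SE 0.26, adjusted p = 0.115). Lims2 and Parvg, the parvin of blood cells, were too dim to be tested, at most 27.3 and 22.6 in any pool.

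The signalling and adaptor proteins gave 0 calls, with 6 of 9 tested probe sets under 0.2 in absolute log2 fold change and 1 with an unadjusted p under 0.05 (limma), against the same 17.3%. Pxn, the scaffold paxillin, read 2221, 1745 and 1721 (wild-type) and 1744, 1937 and 1721 (KO) (−0.07, SE 0.11, adjusted p = 0.832; interval −0.31 to 0.18). Bcar1, the docking protein p130Cas, read 1056, 882 and 889 against 853, 1010 and 863 (−0.05, SE 0.12, adjusted p = 0.881). Zyx, which is recruited to adhesions under tension, read 534, 623 and 521 against 560, 540 and 633 (0.05, SE 0.13, adjusted p = 0.899). These groups all overlapped. A dimmer probe set of each gave −0.20 for Pxn (SE 0.20), −0.15 for Bcar1 (SE 0.16) and −0.24 for Zyx (SE 0.31), none called. Tns1, a tensin of fibrillar adhesions, was lower in every KO pool at 1 probe set (217, 247 and 213 against 163, 150 and 180; −0.46, SE 0.16, adjusted p = 0.153) and gave 0.13 and 0.01 at its others.

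Of the genes for matrix and cell-surface proteins that integrins bind, those that passed were all higher in KO. Of 36 measured ligand genes 29 were tested, each by its brightest probe set; 7 rose (Lama2, Icam1, Postn, Npnt, Ccn2, Fn1 and Col3a1) and 0 fell, against 2.93% higher and 2.48% lower over all named genes. At an unadjusted p under 0.05 (limma), 10 were higher and 4 lower, and the median log2 fold change was 0.20, against −0.01 over all named genes. Without KO replicate 1 the count that rose was 3, and without KO replicate 2 it was 4. This list and the focal adhesion list below were chosen with earlier results of these data known. Their shares beside those of all named genes therefore do not test either list as a set. Postn and Col3a1 also stand among the mesenchyme markers given above, whose summed levels were higher in the same KO pools.

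Npnt, which encodes nephronectin, the ligand of the Itga8 dimer, rose while Itga8 fell. Its brightest probe set read 151, 135 and 154 (wild-type) and 330, 245 and 240 (KO) (0.87, SE 0.18, adjusted p = 0.0118), 1.83-fold higher. Of 3 further tested probe sets none passed, at 0.60 (SE 0.21, adjusted p = 0.152), 0.53 (SE 0.35) and 0.21 (SE 0.23). Lama2, a laminin chain, rose from 53.2, 57.3 and 66.3 to 189, 178 and 182 (1.64, SE 0.19, adjusted p = 0.000337). Fn1, fibronectin, the ligand of the Itga5 and Itga4 dimers, rose from 2001, 1991 and 2175 to 3293, 2652 and 2996 (0.53, SE 0.10, adjusted p = 0.00746). In these 3 genes every wild-type pool lay below every KO pool. Postn, periostin, a matrix protein bound by Itgav dimers, rose from 1507, 1021 and 1076 to 2695, 2217 and 2741 (1.10, SE 0.14, adjusted p = 0.000674). Icam1, a ligand of leukocyte integrins, rose from 17.7, 55.4 and 20.8 to 85.6, 97.1 and 66.6 (1.59, SE 0.39, adjusted p = 0.0344), a call that held in 1 of 6 fits without 1 pool. The call of Ccn2 also held in 1 of these 6 fits, that of Col3a1 in 4 and that of Npnt in 5. Those of Lama2, Postn and Fn1 held in all 6. Vtn, the vitronectin gene, and Vcam1 were under the dim limit in both groups.

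Of 61 measured genes on a further list for focal adhesions 56 were tested. Hic1, on that list, encodes a transcription factor and was not tested. Of the 56, 2 rose (Cav1 and Tes) and 2 fell (Kank1 and Tns3), 7.14% against 5.41% over all named genes. Cav1, the caveolin that forms membrane pits and binds adhesion kinases, rose from 342, 352 and 333 to 1359, 1089 and 1404 (1.90, SE 0.13, adjusted p = 7.59e-06). Tes, a LIM protein that binds zyxin, rose from 2162, 2273 and 2398 to 3514, 3207 and 3206 (0.54, SE 0.09, adjusted p = 0.00307). Kank1, a talin-binding protein at the rim of adhesions, fell from 259, 230 and 228 to 170, 133 and 135 (−0.72, SE 0.17, adjusted p = 0.0283), and Tns3, a tensin, from 7125, 8473 and 6806 to 5737, 5188 and 6067 (−0.40, SE 0.09, adjusted p = 0.0286). No pools overlapped in these 4 genes. The falls of Kank1 and Tns3 held in 2 and 1 of the 6 fits without 1 pool, and the rises of Cav1 and Tes in all 6. Without wild-type replicate 1 or 2, or KO replicate 2 or 3, the list had 0 lower. Another limma fit left out probe sets named _s_at, _x_at or _a_at, those of Cav1 and Tes included. The list had 0 higher there, but with their probe sets removed that fit does not test the 2 rises. Vcl, the talin-binding protein vinculin, gave 0.10 (SE 0.10, adjusted p = 0.691).

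**Figure D4:**
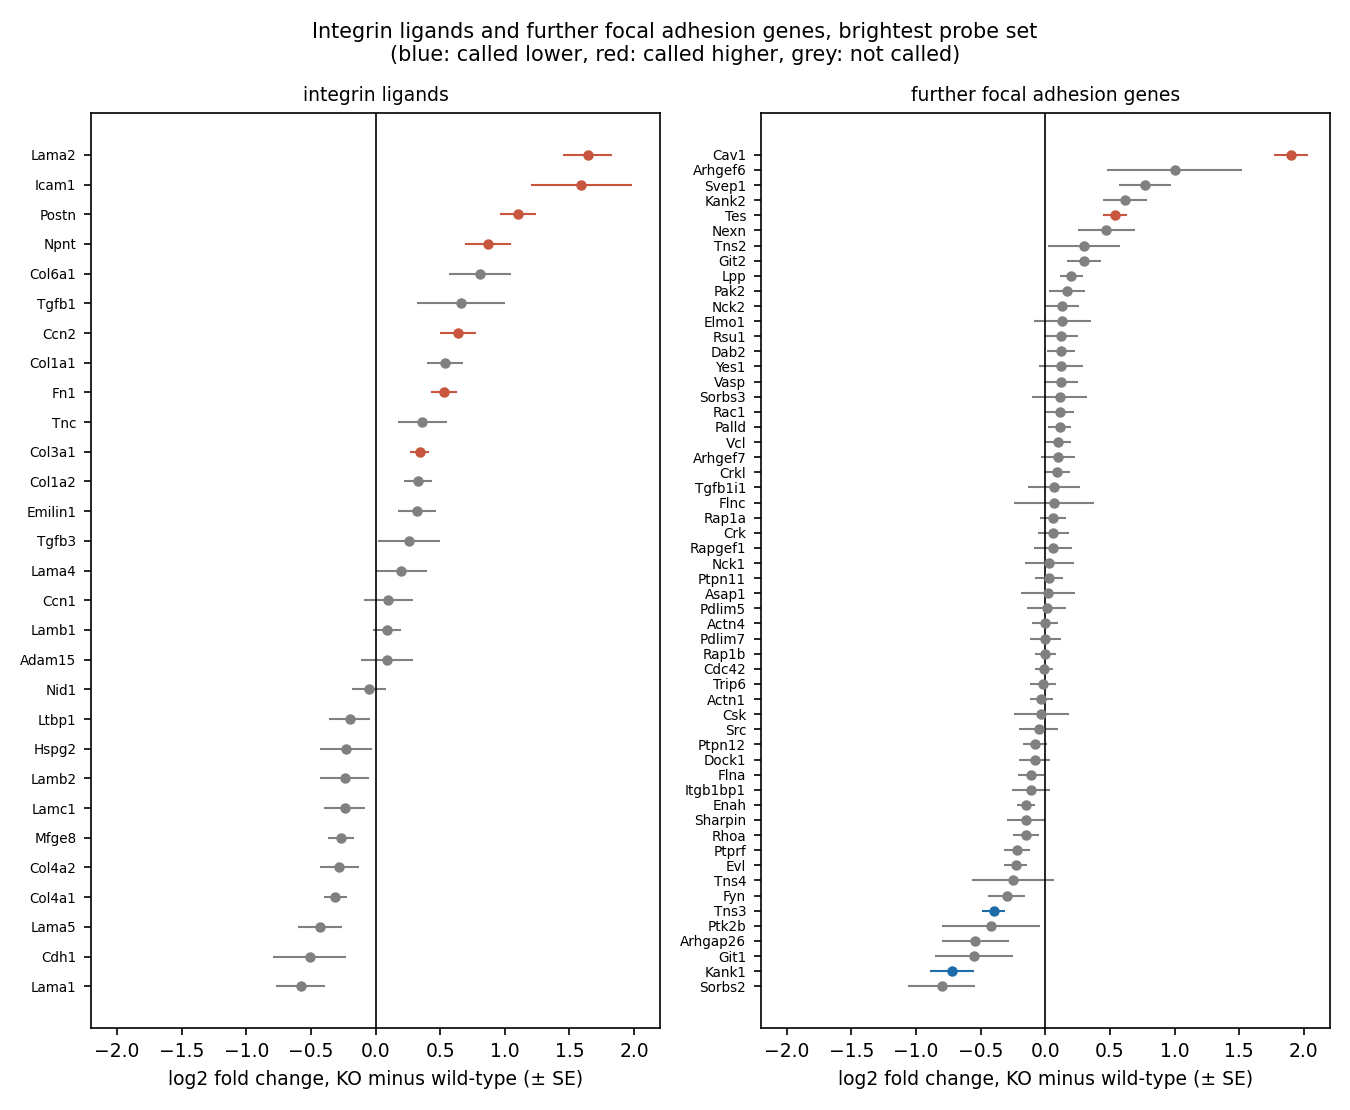
Log2 fold change (KO minus wild-type, x axis) with SE of 29 integrin ligand genes and 56 further focal adhesion genes, 1 row per gene by its brightest probe set, sorted by value. The 7 coloured ligand genes are all higher, Lama2 most at 1.64, and the focal adhesion genes crowd around 0 with Cav1 apart at 1.90.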

How the data were processed

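Per the labels' protocols, 15 ng of total RNA per pool was amplified over 2 rounds and biotin-labelled. The authors deposited 1 linear intensity per probe set and array (45101 probe sets, 6 arrays). The submitters' processing notes name GCOS 1.2; its algorithm and scaling are not stated there. Amplification can lower readings far from the 3' end.

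Since deposited 2% trimmed means differed by up to 1.47 times, each array was scaled to a common one (309.22). A floor was put at the 20th percentile (7.99) before taking log2. Left out were 64 control probe sets and the dimmest 40% (mean intensity under 26.4, the dim limit). The fit used limma 3.58.1 in R 4.3.3 (lmFit, eBayes with intensity trend), two-sided, Benjamini-Hochberg over 27022 probe sets, threshold 0.05. It was checked on simulated arrays. Means and SDs are of scaled intensities.

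Members and lists were chosen with earlier results of these data known. Members that passed are given with every pool; of the rest, the 4 brightest, Itgb1, Itgav, Ilk and Tln1 were named by rule, as were up to 4 passing genes per ligand and adhesion list by size of change. Others named were chosen after their values were seen. Alternatives were another scaling (quantile, median), floor, pseudocount (16), filter, replicate block, array weights and no trend. Others left out probe sets named _s_at, _x_at or _a_at, used gene means or a threshold of 0.1, or left out each pool. Results for gene means are not given here, so whether the calls held under them is not shown. Unscaled values were added after seeing the data. Symbols came from the platform annotation; all 90 member probe sets matched RefSeq (GRCm38.p6) by gene identifier.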

Additional observations from a re-analysis of the deposited data

How the results depend on the processing

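Under quantile normalization, a common median, array weights, a pseudocount and a floor at the 40th percentile, the same 4 member probe sets passed. Without the filter the array had 107 higher and 44 lower calls (151 in all), the members 0 and 0 (0), the ligands 2 higher and the adhesion genes 1 and 0 (3 pathway genes). With the lowest 60% left out, members gave 0 higher (2 in all) and adhesion genes 4 higher. Without an intensity trend the array gave 317 and 224 (541), the members 1 higher, the ligands 3 and the adhesion genes 1 and 0 (4). With the replicate number as a block, Itga5 was lost (adjusted p = 0.0663), leaving 1 higher, and the adhesion genes gave 3 and 1; same-numbered pools shared only a number, their deviations correlating at −0.065, 0.040 and −0.051, and 2 of 6 pools correlated best with their own number. Unscaled, the array gave 267 lower, the members 1 lower, the adhesion genes 1 and 0 (6 pathway genes); signs turned for Itgav 1452784_at (0.01), Itgb1 1452545_a_at (0.01), Tln1 1448402_at (0.06), Ilk (0.00) and Pxn (0.03), none called. At a threshold of 0.1 the array gave 1159 higher (1939), the members 4 (7), the ligands 1 lower and the adhesion genes 4 higher. Without the _s_at and _x_at probe sets, which can cross-hybridise, and the _a_at ones, the adhesion genes gave 0 higher. The Cav1 and Tes probe sets, both _a_at, were among those left out, so that fit does not test their rises. With the floor at the 40th percentile Itga5 1423267_s_at turned to −0.14, uncalled.

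Over fits without 1 pool, calls ran from 721 to 1682 in the array (441 to 890 higher, 271 to 792 lower), from 2 to 8 among members (1 to 2 higher, 1 to 6 lower), from 3 to 6 higher and 0 to 2 lower among ligands, from 2 to 3 higher and 0 to 2 lower among adhesion genes, and from 6 to 13 over both lists. Both signs occurred in 17 of the 56 member probe sets, none called in those fits (lowest adjusted p = 0.323); among the 17 were Itga4 1421194_at (−0.05 to 0.57), Itga5 1423267_s_at (−0.42 to 0.61), Tln1 1448402_at (−0.25 to 0.17), Ilk (−0.21 to 0.04) and Pxn 1456135_s_at (−0.13 to 0.05). Dim probe sets limit the rest: with 3 pools a group and a floor of 7.99, folds of genes near it are compressed, and 34 of 90 member probe sets were not tested.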
